A study of Allium sativum with 18 samples.

Results

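Germination of a garlic bulb (*Allium sativum*, plants labelled Chalingzipisuan) was followed in 2 parts of the clove, and the question treated here is in which genes the change from dormancy to germination differed between them. The members are 12 of the 18 RNA sequencing libraries of the study, 3 from each of 4 groups: basal clove of germinating bulbs, basal clove of dormant bulbs, storage clove of germinating bulbs and storage clove of dormant bulbs. They were chosen by their labels. Germinating bulbs carried shoots under 5 cm, the dormant bulbs are described by their stage only, and basal and storage clove were parted by hand. The remaining 6 libraries, basal and storage clove of bulbs that were still enlarging, took no part in the contrast, though they share its filter and its estimate of spread, and are described beside it. The study's design text calls the replicates biological, without saying how many bulbs went into each.

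In garlic, as background, the base of the clove carries the compressed stem from which roots and the sprout grow, while the bulk of the clove is a swollen storage leaf that holds fructans and sulfur-containing flavour precursors. At sprouting the base and the shoot grow on reserves that the storage leaf gives up. The labels do not say whether sprout tissue was kept in the part called basal clove. The deposited table pairs none of its gene IDs with a name, so neither tissue could be checked against marker genes, no pathway list could be read, and genes appear by ID only.

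For each gene the interaction was the germinating minus dormant difference in basal clove, less the same difference in storage clove, on log2(FPKM + 1). FPKM is a level per length: the fragments of a gene, divided by its length and by the size of the library. An interaction of 1 means that the change was more positive in basal clove by 2-fold on that scale. Genes with a positive interaction and a Benjamini-Hochberg adjusted p below 0.05 (limma) are called basal-shifted, and those with a negative one storage-shifted. Each tissue was measured in bulk, so fewer cells of a type and less RNA per cell cannot be told apart.

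Library depth was uneven. Reads assigned to genes came to 18579917 to 21897520 per library in germinating basal clove, 19611684 to 20897436 in dormant basal clove, 10383944 to 12988262 in germinating storage clove and 6540146 to 7155009 in dormant storage clove. For a gene model of 1 kb, 3 reads stand for 0.137 FPKM where depth was greatest and 0.459 FPKM where it was least, a floor that covers counting error only. Replicates correlated at a Spearman rho of 0.944 to 0.989 across genes. Germinating basal replicate 3 stood nearest to the other tissue of its stage, with a mean rho of 0.829 against the storage libraries, where its replicates had 0.798 and 0.778. The counts of calls, patterns and sizes and the tissue difference in enlarging bulbs were also taken without it.

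The tissues responded differently in a large part of the transcriptome. Of 30530 genes tested, 13003 had an interaction, 42.6% of all, and of these 4126 (13.5%) were basal-shifted and 8877 (29.1%) storage-shifted. By at least 1 on the log2 scale, 2616 genes (8.57%) were basal-shifted and 3970 (13.0%) storage-shifted. The sign held for the most adverse choice of 1 library from each group in 3597 basal-shifted genes (11.8% of those tested) and 7308 storage-shifted genes (23.9%). Leaving out germinating basal replicate 3 gave 13074 genes in all. The excess of storage-shifted genes changed with the scaling. The median interaction of all genes was -0.28, and basal-shifted genes made up 31.7% of the calls. With median-ratio scaling the median was -0.08 and the share 50.0%, with 5634 basal-shifted and 5633 storage-shifted genes. With quantile normalization they were -0.12 and 43.8%. At 1 or more on the log2 scale the order of the directions reversed. Median-ratio scaling gave 3224 basal-shifted and 2668 storage-shifted genes of that size, and quantile normalization 3136 and 2702. All 4126 basal-shifted genes kept their call after median-ratio scaling, and 5633 of the 8877 storage-shifted genes did. That scaling moved the median interaction up, from -0.28 to -0.08, which by itself favours positive calls over negative ones. The counts kept therefore do not rank the directions by stability.

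**Figure D1:**
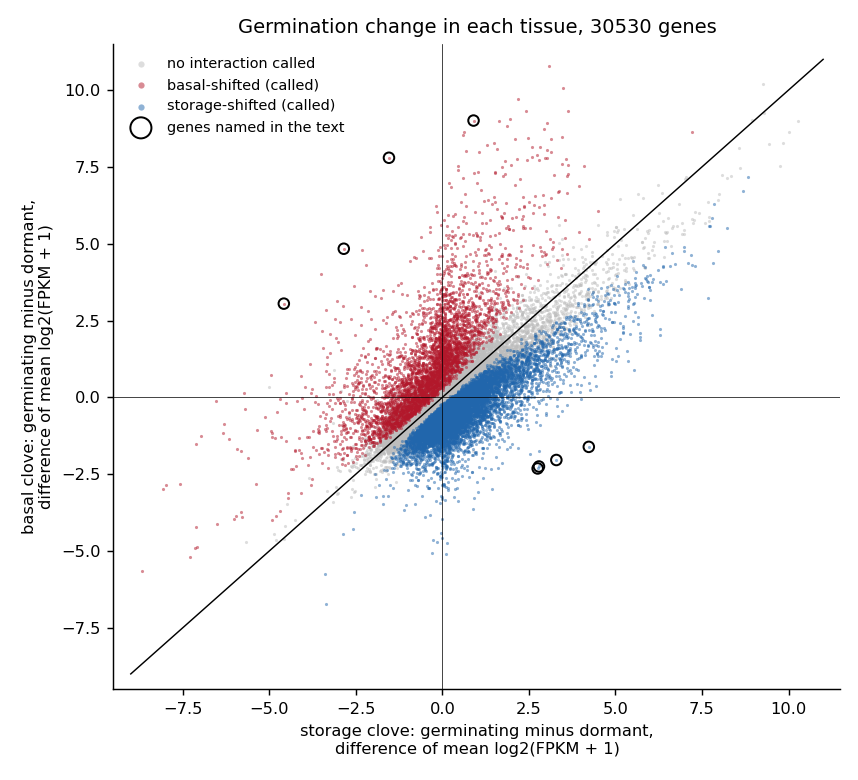
Change from dormant to germinating in storage clove (x axis) and in basal clove (y axis) for 30530 genes, each the difference of mean log2(FPKM + 1) over 3 libraries per group. The distance from the diagonal reflects the interaction, called in 4126 basal-shifted genes above it and 8877 storage-shifted genes below it. In 17527 genes it was not called, though most of these also lie off the diagonal. Open circles mark the 8 named genes, a set without Asa2G04068.1.

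A difference between changes can arise in several ways, and the called genes were therefore sorted by what each tissue did on its own. Among basal-shifted genes, the most frequent pattern was a rise in basal clove with no call in storage clove, in 1356 genes (32.9% of the basal-shifted). A further 786 fell in both tissues but less far in basal clove, 738 rose in both but further in basal clove, 667 fell in storage clove with no call in basal clove, and 544 rose in basal clove while they fell in storage clove. In 35 genes neither tissue's change was called. Among storage-shifted genes a fall in basal clove with no call in storage clove led, with 2928 genes (33.0%). Then came 1871 genes that rose in storage clove with no call in basal clove, 1652 that rose in both but further in storage clove, 1226 that fell in both but less far in storage clove, and 1049 that fell in basal clove while they rose in storage clove. Neither change was called in 151. Over all genes tested, whatever their interaction, 26.1% rose and 42.7% fell in basal clove on the deposited FPKM. In storage clove 30.8% rose and 29.0% fell. The counts by pattern describe the called genes and are no further test, since the interaction is computed from the same changes.

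Genes called in opposite directions were 544 of the genes tested (1.78%) with a rise in basal clove and a fall in storage clove, and 1049 (3.44%) with the reverse. Which of these groups was larger depended on the scaling, with 771 and 554 genes after median-ratio scaling and 799 and 719 after quantile normalization. Where both tissues moved the same way, the sign could turn with the scale. On plain FPKM means the difference of the changes had the opposite sign in 53 of the 738 basal-shifted genes that rose in both tissues and in 123 of the 1652 storage-shifted ones. Over all calls this was so in 106 basal-shifted genes (2.57%) and 217 storage-shifted genes (2.44%). Median-ratio scaling also cut the storage-shifted genes that fell in both tissues to 459 and those that fell in basal clove alone to 1585.

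**Figure D2:**
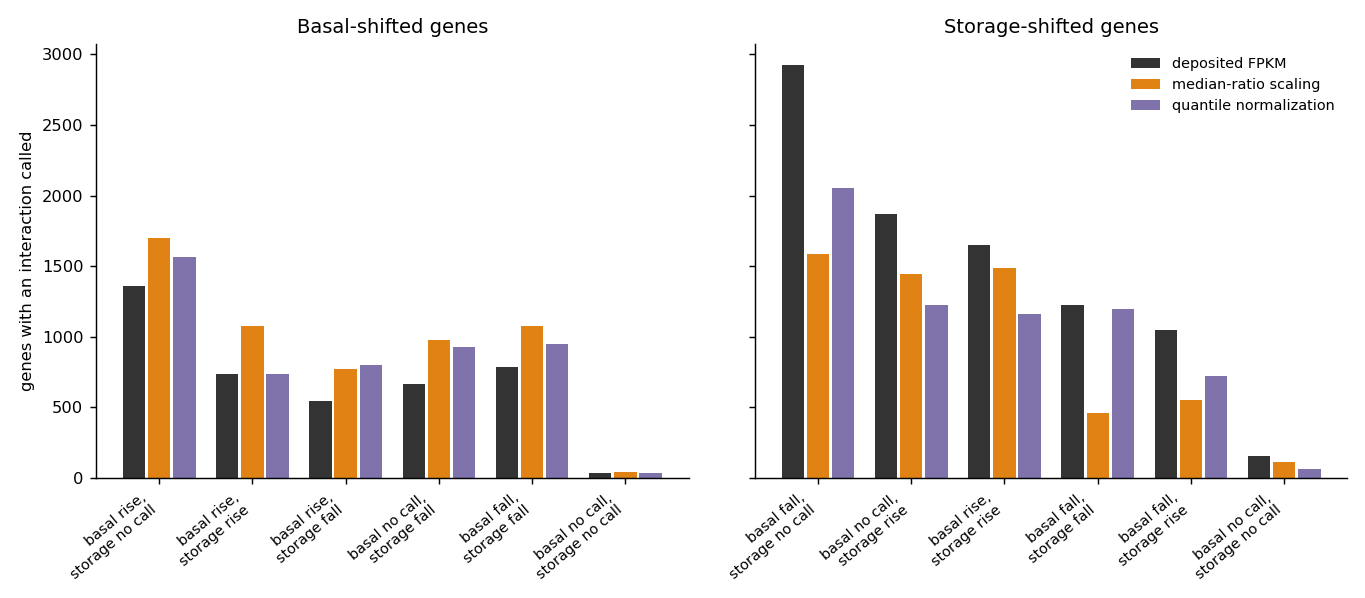
Number of genes with an interaction called (y axis) by what each tissue did between dormancy and germination (x axis), for basal-shifted genes on the left and storage-shifted genes on the right, under the deposited FPKM and 2 rescalings. Basal rise without a storage call is the tallest class on the left at 1356 genes and basal fall without a storage call on the right at 2928, which median-ratio scaling reduced to 1585.

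The same genes can be read by the group that stood apart. In 641 genes germinating basal clove alone was high: both contrasts that involve it were called upward and the others were not. Their median level was 8.50 FPKM in germinating basal clove, 0.643 in dormant basal clove, 0.536 in germinating storage clove and 0.472 in dormant storage clove. In 790 genes the same group alone was low, at a median of 7.23 FPKM against 13.3 to 13.6 in the other 3 groups. Dormant basal clove alone was high in 1027 genes, where the medians were 3.64 FPKM in germinating basal clove, 9.68 in dormant basal clove, 3.94 in germinating storage clove and 3.52 in dormant storage clove. Dormant storage clove alone was low in 685 genes, at 5.61 FPKM against 12.4 to 13.5 in the other groups. Germinating storage clove alone was high in 482 genes and low in 138. Dormant storage clove alone was high in 259 genes, and dormant basal clove alone was low in 95.

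Some of these counts moved with the scaling. With median-ratio scaling 752 genes had germinating basal clove alone high and 353 had it alone low, while 604 had dormant basal clove alone high and 184 had it alone low. Dormant storage clove alone was low in 361 genes after quantile normalization. Without germinating basal replicate 3 the 641 and 790 genes set by germinating basal clove became 632 and 618. An uncalled contrast does not show that groups were equal, so the classes hold the clearest cases only. They sum to fewer genes than the interaction called.

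Because the interaction is also the tissue difference at germination less that at dormancy, it shows where the order of the tissues turned round. In 456 basal-shifted genes basal clove stood below storage clove at dormancy and above it at germination, with both differences called. The median levels of these genes were 27.3 FPKM in germinating basal clove, 10.4 in dormant basal clove, 11.2 in germinating storage clove and 21.9 in dormant storage clove. In 1109 storage-shifted genes the order turned the other way, with medians of 19.5, 25.1, 30.4 and 15.7 FPKM in the same groups. The counts became 686 and 554 after median-ratio scaling and 763 and 839 after quantile normalization, so neither direction was the more frequent under all scalings. Over all genes tested, basal clove was called higher in 34.6% and lower in 23.1% at dormancy, and higher in 25.0% and lower in 35.4% at germination. More often a difference opened or closed. A tissue difference not called at dormancy was called at germination in 1340 basal-shifted and 2531 storage-shifted genes, and a difference called at dormancy was no longer called at germination in 687 and 2828.

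At 3 or more on the log2 scale there were 487 basal-shifted genes (1.60% of those tested) and 133 storage-shifted genes (0.436%), and at 5 or more there were 106 (0.347%) and 5 (0.0164%). Germinating basal clove had the highest mean of the 4 groups in 399 of the 487 genes, or 81.9%, against 56.3% of all basal-shifted genes and 19.0% of all genes tested. Their median level was 62.4 FPKM in germinating basal clove, 2.04 in dormant basal clove, 2.53 in germinating storage clove and 2.65 in dormant storage clove. In 79 of them dormant storage clove was the highest group. Among the 133 storage-shifted genes dormant storage clove had the lowest mean in 111, or 83.5%, against 49.3% of all storage-shifted genes and 30.1% of all genes tested. A large interaction needs at least 1 group to be far from the others, so these shares describe which group it was and test nothing. Their medians were 9.76 FPKM in germinating basal clove, 23.0 in dormant basal clove, 17.0 in germinating storage clove and 0.756 in dormant storage clove.

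How many large interactions each direction held depended on how low values were treated. With a pseudocount of 0.1 FPKM there were 859 basal-shifted and 802 storage-shifted genes at 3 or more, and with 5 FPKM there were 259 and 20. With voom on the recovered reads there were 939 and 546. Dormant storage clove, where the 133 genes are low, was also the shallowest group. A median of 12 reads per gene was counted for them over its 3 libraries, and 33 of the 133 had under 3 reads there. After every library was thinned to 6540146 reads, 512 basal-shifted and 147 storage-shifted genes were at 3 or more.

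**Figure D3:**
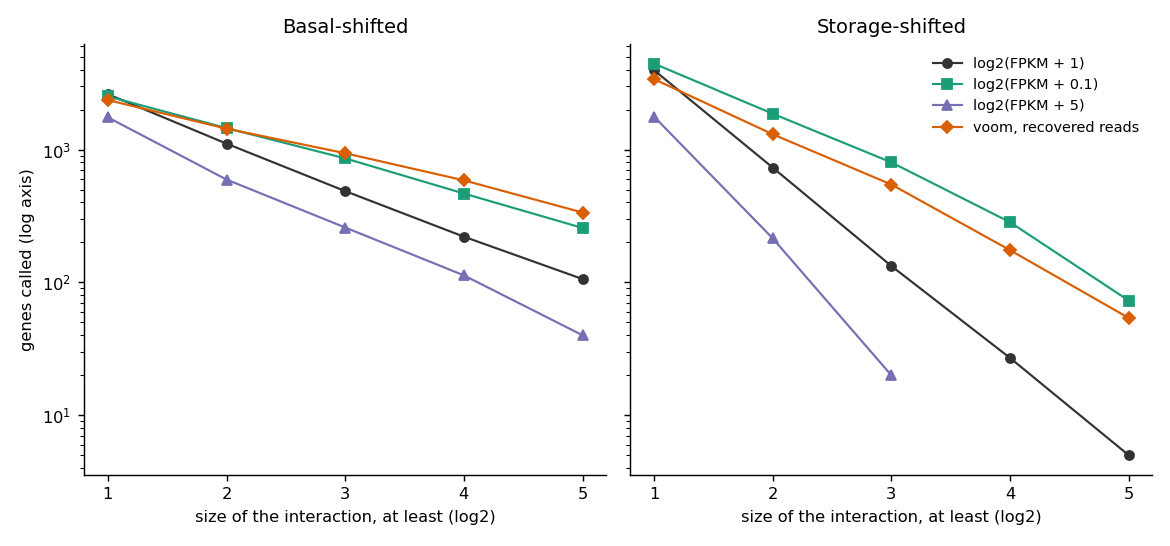
Number of genes called (y axis, log) whose interaction was at least the size on the x axis, basal-shifted on the left and storage-shifted on the right, under 4 treatments of low values. At 3 or more the counts are 487 and 133 with log2(FPKM + 1), 859 and 802 with a pseudocount of 0.1, and no storage-shifted gene reaches 4 with a pseudocount of 5.

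The gene with the largest interaction was Asa5G02442.1, a gene nearly silent in dormant basal clove. It had 297.9, 212.8 and 203.4 FPKM in germinating basal clove and 0.0623, 0.117 and 0 FPKM in dormant basal clove, where 6 reads were counted in all. Storage clove went the other way at low levels, with 0.945, 0.799 and 0.823 FPKM at germination and 3.92, 4.23 and 5.12 FPKM at dormancy. The groups of neither tissue overlapped. Germinating basal clove thus held 278-fold the level of germinating storage clove, while dormant storage clove held 74.1-fold the level of dormant basal clove. The dormant fold rests on few reads. It was 142 without dormant basal replicate 2 and 49.4 without dormant basal replicate 3. The interaction was 9.34 (SE 0.28, limma adjusted p = 1.1e-11).

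Asa4G06013.1 came next, with a rise in basal clove and no call in storage clove. Its levels were 732.2, 678.1 and 503.7 FPKM in germinating basal clove and 0.142, 0.267 and 0.274 FPKM in dormant basal clove, where 5 reads were counted. In storage clove it had 6.47, 2.36 and 2.95 FPKM at germination and 1.28, 2.76 and 0.779 FPKM at dormancy, groups that overlap. The interaction was 8.11 (SE 0.60, limma adjusted p = 5.4e-08), and the change in storage clove was 0.90 (SE 0.42, limma adjusted p = 0.076).

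A pair of basal-shifted genes was taken for moving in opposite directions. Asa6G00265.1 had 366.1, 116.9 and 98.9 FPKM in germinating basal clove and 4.75, 3.75 and 5.78 FPKM in dormant basal clove. In storage clove it had 1.05, 1.51 and 2.36 FPKM at germination and 16.5, 17.0 and 19.5 FPKM at dormancy. Replicate 1 was more than 3-fold above the other germinating basal libraries, and no groups overlapped. The interaction was 7.68 (SE 0.48, limma adjusted p = 1.2e-08), or 7.10 to 8.04 with 1 library left out. Before dormancy it had already been higher in storage clove, at 15.0 ± 1.68 FPKM in enlarging basal clove and 58.8 ± 8.20 FPKM in enlarging storage clove (SD, n = 3 each).

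Asa5G02264.1 nearly exchanged its tissues. It had 12.2, 7.07 and 9.31 FPKM in germinating basal clove, against 0, 0.808 and 0.0691 FPKM in dormant basal clove. In storage clove it had 1.57, 0.433 and 1.08 FPKM at germination, against 40.4, 32.8 and 73.9 FPKM at dormancy. The gene was 168-fold higher in storage than in basal clove at dormancy and 9.25-fold higher in basal than in storage clove at germination. Replicate 2 held most of the 13 dormant basal reads. The dormant fold was 1420 without it and 112 without dormant basal replicate 1. The interaction was 7.63 (SE 0.43, limma adjusted p = 4.4e-09).

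The storage-shifted genes with the largest interactions carry neighbouring IDs. Asa2G03094.1 had 17.8, 23.6 and 16.3 FPKM in germinating basal clove and 51.3, 80.4 and 52.5 FPKM in dormant basal clove. In storage clove it had 33.0, 26.7 and 22.1 FPKM at germination and 0.281, 1.04 and 0.257 FPKM at dormancy, where 12 reads were counted. Basal clove therefore held 117-fold the storage level at dormancy. The fold was 228 without dormant storage replicate 2 and 93.0 without dormant storage replicate 3. At germination basal clove averaged 19.2 ± 3.85 FPKM and storage clove 27.3 ± 5.44 FPKM (SD, n = 3 each). The interaction was -5.84 (SE 0.32, limma adjusted p = 2.7e-09).

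Its neighbour Asa2G03093.1 followed the same course at lower depth. The levels were 5.93, 7.43 and 4.51 FPKM in germinating basal clove and 19.0, 38.3 and 27.4 FPKM in dormant basal clove. Germinating storage clove had 12.4, 7.16 and 7.62 FPKM, and no read was counted in any of the 3 dormant storage libraries. Set against 3 reads over the group, germinating storage clove was at least 13.5-fold higher than dormant storage clove, and dormant basal clove at least 42.0-fold higher than dormant storage clove. The interaction was -5.33 (SE 0.38, limma adjusted p = 4.5e-08). Whether the neighbours share reads was not tested.

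The other storage-shifted genes taken for opposite directions were likewise lowest in dormant storage clove. Asa7G01645.1 had 9.59, 13.01 and 10.03 FPKM in germinating basal clove and 43.8, 92.6 and 47.0 FPKM in dormant basal clove, with 8.19, 6.43 and 9.33 FPKM in germinating storage clove and 0.511, 0.236 and 0.234 FPKM in dormant storage clove. Its interaction was -5.07 (SE 0.44, limma adjusted p = 3.3e-07). Basal clove was 187-fold above storage clove at dormancy, where storage clove had 8 reads in all. This fold was 139 to 260 with 1 library left out. At germination basal clove was 1.36-fold above storage clove, a difference of 0.40 on the log2(FPKM + 1) scale (SE 0.31, limma adjusted p = 0.28).

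Asa7G03462.1 had 5.15, 7.25 and 2.04 FPKM in germinating basal clove and 25.1, 22.9 and 25.6 FPKM in dormant basal clove. Germinating storage clove had 7.56, 10.8 and 14.1 FPKM and dormant storage clove 1.12, 0.173 and 0.853 FPKM. Here the order turned, since basal clove was 34.3-fold above storage clove at dormancy and storage clove 2.25-fold above basal clove at germination. The dormant fold rests on 12 reads in storage clove and was 24.9 to 47.8 with 1 library left out. The interaction was -5.04 (SE 0.46, limma adjusted p = 4.7e-07).

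Of the 5 storage-shifted genes past 5, the remaining one, Asa2G04068.1, was singled out after its values were seen and had another pattern. No read was counted in the 3 germinating basal libraries, while dormant basal clove had 38.7, 20.6 and 45.5 FPKM. Storage clove was near 0 at both stages, with 3 reads over the germinating and 1 read over the dormant libraries. It had been at 26.0, 35.1 and 59.3 FPKM in enlarging basal clove and at 22.1, 30.7 and 16.0 FPKM in enlarging storage clove, so that it was low in storage clove from dormancy and in basal clove at germination. The interaction was -5.21 (SE 0.45, limma adjusted p = 2.6e-07).

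**Figure D4:**
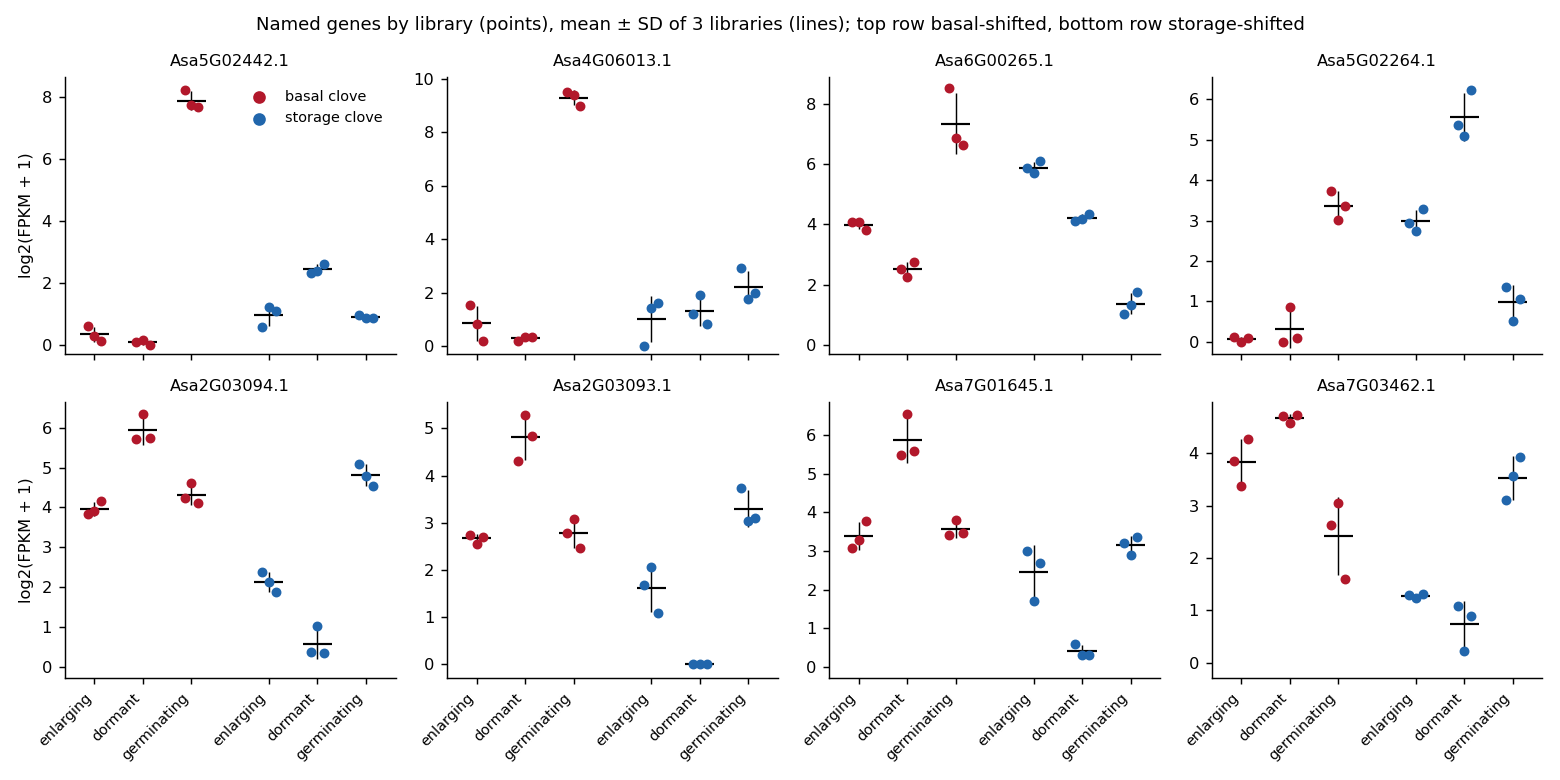
Levels of the 8 named genes on the log2(FPKM + 1) scale (y axis) by stage and tissue (x axis), with 1 point per library, a horizontal line at the mean and a vertical line for the SD of 3 libraries. In the top row germinating basal clove stands above dormant basal clove, and in the bottom row dormant storage clove is the lowest of the 6 groups, at 0 FPKM in all 3 libraries for Asa2G03093.1.

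The 6 enlarging libraries show the same genes at an earlier stage. Their levels do not enter the interaction itself, but they take part in the filter and in the estimate of spread behind its calls. Over all genes tested, 28.7% were higher and 22.8% lower in basal than in storage clove of enlarging bulbs. Among the 133 genes storage-shifted by 3 or more, 83 (62.4%) were higher in enlarging basal clove and 16 lower, with a median difference of 1.27 on the log2 scale against 0.06 for all genes. Among the 1049 genes that fell in basal and rose in storage clove, 550 (52.4%) were higher and 160 (15.3%) lower. Both classes thus held more genes higher in enlarging basal clove than the genes tested as a whole, a description without a test. With the interaction taken from 12 libraries and the enlarging difference from the other 6 in separate fits, 64.1% and 53.8% of these classes were higher, against 29.8% of all genes. Without germinating basal replicate 3 the shares were 53.5% of 159 genes and 52.9% of 1026, against 29.6%.

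Genes whose tissue order turned gave a mixed picture. Of the 456 genes that turned to basal clove at germination, 219 (48.0%) were lower in enlarging basal clove and 38 (8.33%) higher. Of the 1109 that turned to storage clove, 352 (31.7%) were higher and 244 (22.0%) lower, close to the shares over all genes. The separate fits gave 50.5% lower for the first class and 31.2% higher for the second. The 487 genes basal-shifted by 3 or more had 160 (32.9%) higher and 110 (22.6%) lower, also near the background. All 4126 basal-shifted genes had 26.9% higher and 31.7% lower, and all 8877 storage-shifted genes 39.8% higher and 19.9% lower.

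**Figure D5:**
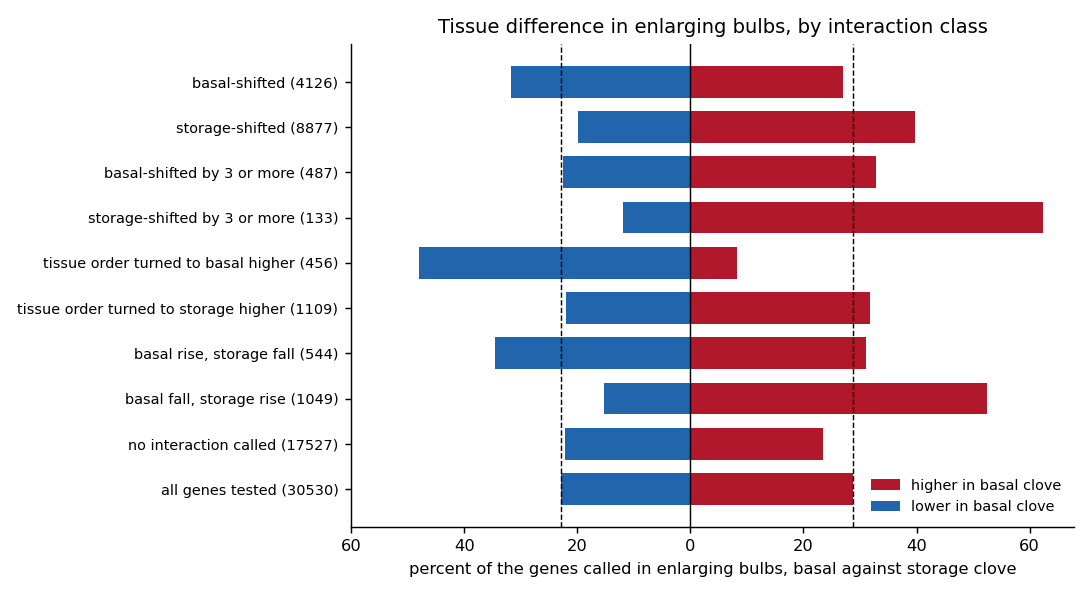
Percent of the genes in each class (rows, number of genes in brackets) called higher in basal clove (right of 0) or lower in basal clove (left of 0) in enlarging bulbs, whose levels are not part of the interaction but which share its filter and estimate of spread. Dashed lines mark all genes tested at 28.7% and 22.8%; genes storage-shifted by 3 or more reach 62.4% higher, and genes that turned to basal clove reach 48.0% lower.

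The summed FPKM of each library was also split by class. It is scaled by gene length and is not an amount of RNA. By number, basal-shifted genes were 13.5% and storage-shifted genes 29.1% of those tested. Genes basal-shifted by 3 or more were 1.60%. Basal-shifted genes held 26.1% to 28.9% of the summed FPKM in germinating basal libraries and 13.7% to 14.2% in dormant basal libraries, against 13.2% to 14.9% in germinating storage and 25.6% to 26.0% in dormant storage libraries. Storage-shifted genes held 34.2% to 34.9% and 43.6% to 44.1% in basal clove at germination and at dormancy, and 42.1% to 43.3% and 30.2% to 30.5% in storage clove. The 487 genes basal-shifted by 3 or more alone took 8.84% to 10.9% in germinating basal clove, 1.13% to 1.27% in dormant basal clove, 0.418% to 0.850% in germinating storage clove and 2.60% to 2.90% in dormant storage clove. In enlarging bulbs the basal-shifted genes held 18.3% to 19.4% in basal and 22.4% to 23.5% in storage clove. These genes were chosen on the same libraries, so the dormant and germinating shares describe them and test nothing.

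On the deposited FPKM, storage-shifted genes were called more often at higher expression levels. When the genes were cut into 3 classes of equal size by mean level, 19.8%, 29.2% and 38.2% were storage-shifted and 12.6%, 11.7% and 16.3% basal-shifted, low to high. The median length of the gene model was 872 bp for basal-shifted, 831 bp for storage-shifted and 699 bp for uncalled genes. Median reads over the 3 dormant storage libraries were 195, 153 and 74 in the same order. Called genes thus had more reads, and whether read number sets these shares was not tested. By ID prefix, 12.8% to 14.3% of the genes tested were basal-shifted and 25.9% to 30.5% storage-shifted. Prefix Asa0G, with 2200 genes, had both the highest basal-shifted and the lowest storage-shifted share. The other prefixes had 28.4% to 30.5% storage-shifted, and the difference was not tested. Shares over whole prefixes cannot show shorter stretches of IDs. Neighbours in ID number were alike more often than pairs in general. Among 18590 pairs of tested genes with consecutive numbers, the second gene was basal-shifted in 26.3% of pairs whose first gene was, against 13.8% of all pairs. In the storage direction the excess was smaller, 37.2% against 28.9%. For shifts of 3 or more the figures were 16.4% (49 of 299 pairs) against 1.54% in the basal direction. In the storage direction they were 21.0% (17 of 81 pairs) against 0.436%. Whether reads were shared between related neighbours was not tested.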

How the data were processed

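The values are FPKM that the authors deposited in 1 table, with a column for each of 18 libraries. The aligner HISAT2 is named, without its version, in what the submitters' processing notes list. The sources used here do not give the counter, build, annotation or strand setting. Reads were recovered from the steps of the FPKM values: with totals and gene lengths found by search, 100% of 595800 values above 0 came out whole within 0.01 reads, and 95.2% of the lengths of genes over 100 reads were multiples of 3, so lengths are mostly coding lengths. Part of that match comes from the search itself. As an alternative, limma's voom on these reads called 10412 genes. Genes with at least 1 FPKM in at least 3 libraries, 30530 of 57561, were tested with limma 3.58.1 in R 4.3.3 on log2(FPKM + 1), in 1 model of 6 group means over 18 libraries (12 residual degrees of freedom, variance trend, Benjamini-Hochberg adjustment over all genes tested). A change on this scale understates that of low genes. P-values measure the spread between libraries within groups, pooled for each gene over the 6 groups, and not the spread of any single group.

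The members, classes and tests were chosen with earlier results of these data known. Named genes were the 2 with the largest interaction in each direction, and the next 2 each way that moved in opposite directions with no overlap in either tissue. Each had to be called, keep its sign under the most adverse replicates and reach a group mean of 10 FPKM. No pair of replicates agreed within sampling noise (chi-square per gene 2.68 to 65.92). Germinating basal clove had 14.14 to 65.92 and dormant basal clove 3.98 to 6.01, so the pooled spread may be too small for germinating basal clove. The model was tested on simulated data.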

Additional observations from a re-analysis of the deposited data

Results flagged for a closer look

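The germination change differed between basal and storage clove, by the test of the difference itself, in 13003 genes (limma, Benjamini-Hochberg adjusted p below 0.05). The same test called each of the 8 named genes, a set without Asa2G04068.1, which was singled out later. The interaction on the log2 scale was 9.34 for Asa5G02442.1, 8.11 for Asa4G06013.1, 7.68 for Asa6G00265.1 and 7.63 for Asa5G02264.1. It was -5.84 for Asa2G03094.1, -5.33 for Asa2G03093.1, -5.07 for Asa7G01645.1 and -5.04 for Asa7G03462.1. These genes were picked for the size of this value, so its size is a description.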

How the results depend on the processing

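The interaction was refitted under 24 alternatives, 12 of them leaving out 1 library. All 8 named genes kept their direction and call in every one, with adjusted p-values up to 0.0019 (limma). They were chosen to keep their sign under the most adverse replicates, so their direction with 1 library left out was fixed beforehand. Their sizes depended on the scale. Over the alternatives Asa5G02442.1 ranged from 6.25 to 14.44, Asa4G06013.1 from 6.51 to 9.92, Asa6G00265.1 from 5.88 to 8.63 and Asa5G02264.1 from 4.54 to 11.57. Asa2G03094.1 ranged from -7.41 to -3.97, Asa2G03093.1 from -8.67 to -3.04, Asa7G01645.1 from -6.84 to -3.27 and Asa7G03462.1 from -6.46 to -3.08. Every smallest size came from the pseudocount of 5. The largest came from voom or the pseudocount of 0.1, or from weighted libraries for Asa6G00265.1. Pseudocounts and voom change the scale, so these ranges cannot be set against the SEs. With 1 library left out, the narrowest range was 9.17 to 9.44 for Asa5G02442.1 and the widest 7.10 to 8.04 for Asa6G00265.1. The total of 13003 calls ranged from 10412 to 15065, with 11693 to 13074 when 1 library was left out. Basal-shifted and storage-shifted calls ranged from 3756 to 4289 and from 7819 to 8820 with 1 library left out, and the share of basal-shifted calls from 30.6% to 33.9%. Median-ratio scaling gave 5633 storage-shifted genes, a share of basal-shifted calls of 50.0% and a median interaction of -0.084, and quantile normalization a share of 43.8% and a median of -0.119. The median was -0.341 with a pseudocount of 0.1, -0.164 with one of 5 and -0.132 without a filter. With a pseudocount of 5, 1775 genes were storage-shifted and 1750 basal-shifted by 1 or more. Median-ratio scaling left 554 genes that fell in basal and rose in storage clove, and 554 whose order turned to storage clove. The order turned to basal clove in 686 genes with median-ratio scaling, and in 763 with quantile normalization, and the cause was not tested. Deviations of same-numbered basal and storage libraries of 1 stage correlated at -0.24 to 0.07, so the numbers gave no pairing. A fit with the replicate block within stage called 11775 genes and one with the block over all groups 12770. The block within stage could not give the changes by stage, and the fit on 12 libraries could not give the enlarging comparison. Of the genes storage-shifted by 3 or more, which are mostly low in dormant storage clove, 24.8% had under 3 reads there, against 8.44% of all genes tested, so their sizes are imprecise. The separate fits for interaction and enlarging bulbs, the class shares without germinating basal replicate 3 and the folds with 1 library left out were chosen after seeing the data.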
